A study of Mus musculus with 5 samples.

Results

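The POU domain genes followed here are the 7 mouse genes Pou3f1, Pou3f2, Pou3f3, Pou4f1, Pou4f2, Pou4f3 and Pou5f1. They were taken by symbol, with earlier results of these data known, from tables of SUZ12 peaks in mouse embryonic stem cells (ESCs). Of the 7 genes, 6 had at least 1 linked peak in every library and Pou5f1 had none in any, among 1935 genes with a linked peak in at least 1 library. The cells were male 129SV ESCs with a knockout of Mbd3, grown in conventional medium with LIF, and SUZ12 was profiled in them by ChIP-seq, the sequencing of DNA that an antibody pulls down with its protein. Mbd3 encodes a subunit of the NuRD remodelling complex. All 4 SUZ12 libraries came from the knockout cells and differed in what these carried. The labels name them GFP, WT, deltaMBD and deltaCC. GFP is read here as the control with no MBD3, and WT as intact MBD3. From the series design, the others (ΔMBD and ΔCC below) carried MBD3a without its MBD domain or without its coiled coil. The sources used here do not say how the forms were expressed, how much protein was made, or whether a culture was a clone. The remaining sample, an input from cells labelled EBRTcH3, had no antibody and no peak table analysed here. Each group had 1 library, so no difference below has a replicate check or a p-value.

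A linked peak is a peak whose centre lay within 5 kb of the gene's start site and which the association tool assigned to that gene. Positive distances lie downstream of the start site. The tables hold no read number, no peak height and no peak width. Absence of a linked peak is thus no proof that SUZ12 was absent, and a larger number of peaks is not stronger binding.

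POU factors bind DNA through a POU-specific domain and a POU homeodomain joined by a linker. The class III genes (Pou3f) serve the developing nervous system, the class IV genes (Pou4f) serve sensory neurons, and Pou5f1 (OCT4) maintains pluripotency. SUZ12 is a core subunit of Polycomb repressive complex 2, which methylates lysine 27 of histone H3 and in ESCs occupies many silent developmental regulators, often at CpG-rich start sites.

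Because CpG-rich start sites are a known feature of Polycomb targets, the bases before the start of 4 members are shown, with every CpG in capitals. They were chosen to set 3 genes with linked peaks beside Pou5f1. The sequences are RefSeq's on GRCm38.p6, 5′ to 3′ on the strand of the gene. The peaks were called on mm9, whose coordinates differ. The Pou3f2 stretch is chr4:22488367-22488616 on the minus strand, and the Pou3f3 stretch is chr1:42695518-42695767 on the plus strand. The Pou4f1 stretch is chr14:104468119-104468249 on the minus strand, and the Pou5f1 stretch is chr17:35505782-35506031 on the plus strand. All lie directly upstream of the RefSeq gene record.
Pou3f2: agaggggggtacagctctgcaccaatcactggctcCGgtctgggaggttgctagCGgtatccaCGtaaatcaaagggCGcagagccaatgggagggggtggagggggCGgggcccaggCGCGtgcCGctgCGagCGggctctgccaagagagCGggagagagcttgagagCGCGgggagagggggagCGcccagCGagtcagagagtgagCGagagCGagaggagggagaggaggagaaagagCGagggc
Pou3f3: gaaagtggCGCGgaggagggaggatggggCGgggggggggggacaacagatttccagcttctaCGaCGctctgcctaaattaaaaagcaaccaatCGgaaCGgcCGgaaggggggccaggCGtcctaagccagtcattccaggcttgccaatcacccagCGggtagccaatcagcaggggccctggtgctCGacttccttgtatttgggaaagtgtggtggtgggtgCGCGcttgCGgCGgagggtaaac
Pou4f1: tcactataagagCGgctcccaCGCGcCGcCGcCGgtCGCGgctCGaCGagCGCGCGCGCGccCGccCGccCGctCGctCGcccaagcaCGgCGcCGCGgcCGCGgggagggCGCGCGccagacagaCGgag
Pou5f1: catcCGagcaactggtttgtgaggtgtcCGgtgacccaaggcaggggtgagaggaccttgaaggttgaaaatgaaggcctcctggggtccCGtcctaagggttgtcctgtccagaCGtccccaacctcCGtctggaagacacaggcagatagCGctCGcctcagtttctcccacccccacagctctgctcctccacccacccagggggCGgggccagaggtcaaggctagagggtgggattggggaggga

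In the 250 bases before the RefSeq start, Pou4f1 held 47 CpG dinucleotides, a number reached by 0.303% of 17492 promoters of protein-coding genes. Of these, 30 lie in the 131 bases printed above. The remainder of its window lies inside a longer RefSeq gene record and is not printed. Pou3f2 held 18, Pou4f2 held 17 and Pou3f3 held 15. Pou5f1, the member with no linked peak, held 8, the lowest of the 5 members matched in the promoter table. Outside the 7, Pou1f1 with 4, Pou5f2 with 9, Pou2f2 with 12 and Pou2f1 with 29 were also listed in no library. Pou3f1 and Pou4f3 were not matched. The median was 17 over the 613 promoters of genes listed in all 4 libraries and 9 over the 16143 of genes listed in none. Their interquartile ranges, 10 to 25 and 2 to 18, overlapped. The 8 of Pou5f1 lay below both medians, within the range of the genes listed in none. The 15 of Pou3f3, the 17 of Pou4f2 and the 18 of Pou3f2 also lay within that range. A link between CpG number and listing at the members was not tested.

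**Figure D1:**
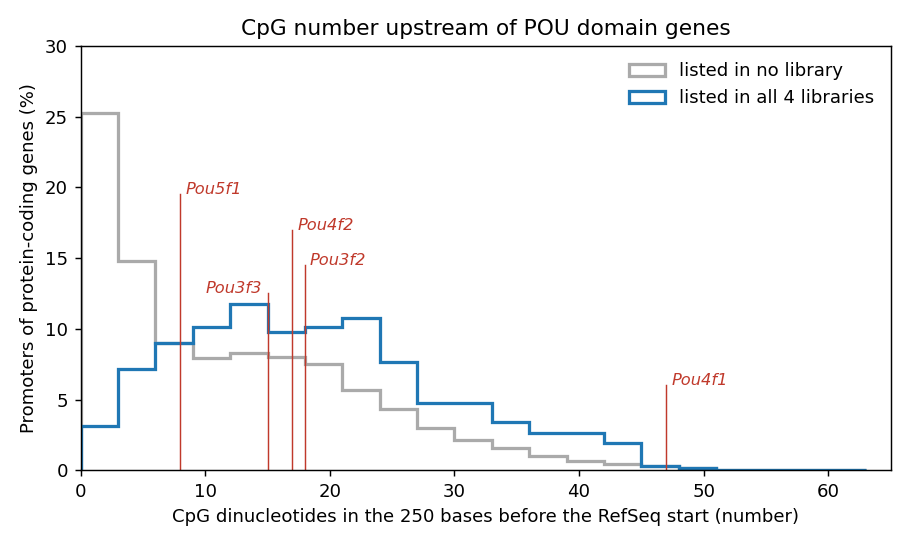
Number of CpG dinucleotides in the 250 bases before the RefSeq start (x axis) against the share of promoters (y axis, %), for genes listed in none or in all 4 libraries; red lines mark members, and their heights carry no value. Pou4f1, with 47, lies at the far right, and Pou5f1, with 8, is the leftmost member.

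The CCAAT box (CCAAT or, on the other strand, ATTGG) occurred 3 times in the 250 bases of Pou3f3, 2 times in those of Pou3f2 and 3 times in those of Pou3f4, a class III gene outside the 7. It occurred once in Pou5f1 and did not occur in those of Pou4f1 or Pou4f2. At least 2 occurrences were found in 12.0% of all promoters and at least 1 in 36.5%. This motif was chosen after the sequences had been seen. The octamer ATGCAAAT, the classical POU recognition sequence, was found on neither strand in any of the 5 member promoters, and in 1.62% of all promoters.

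Each library listed the same 6 of the 7 genes (85.7%, exact 95% interval 42.1 to 99.6, covering counting error only). The WT library listed 7.32% of 21900 protein-coding symbols, GFP 4.61%, ΔCC 5.37% and ΔMBD 7.37%. Symbols listed in all 4 libraries made up 3.96%, against 6 of the 7 members. The members were chosen with earlier results of these data known, so these shares are description and not independent evidence. Each library listed the same 6, so presence within 5000 bp of the start site did not separate the libraries at any member. Within 1000 bp it did: 3 members were listed in WT, 6 in GFP, 4 in ΔCC and 3 in ΔMBD. Pou5f1 had no linked peak in GFP, WT, ΔMBD or ΔCC.

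The members had 9 linked peaks in WT, 12 in GFP, 13 in ΔCC and 16 in ΔMBD, 50 in all. No member peak was linked to a second gene. Per listed member this was 1.5 peaks in WT, 2 in GFP, 2.17 in ΔCC and 2.67 in ΔMBD. Over all listed genes the means were 1.65, 1.86, 1.91 and 1.83 in the same order. ΔMBD thus had the highest mean at the members and not over all listed genes. Its lead came from peaks farther out: within 2000 bp of the start site the members had 8 peaks in WT, 9 in GFP, 7 in ΔCC and 7 in ΔMBD. Genes with at least 3 peaks were 4 of the 6 members in ΔMBD, against 20.2% of all genes it listed. In GFP and in ΔCC they were 2 members each, against 20.4% and 22.3%, and in WT 1 member, against 14.0%.

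**Figure D2:**
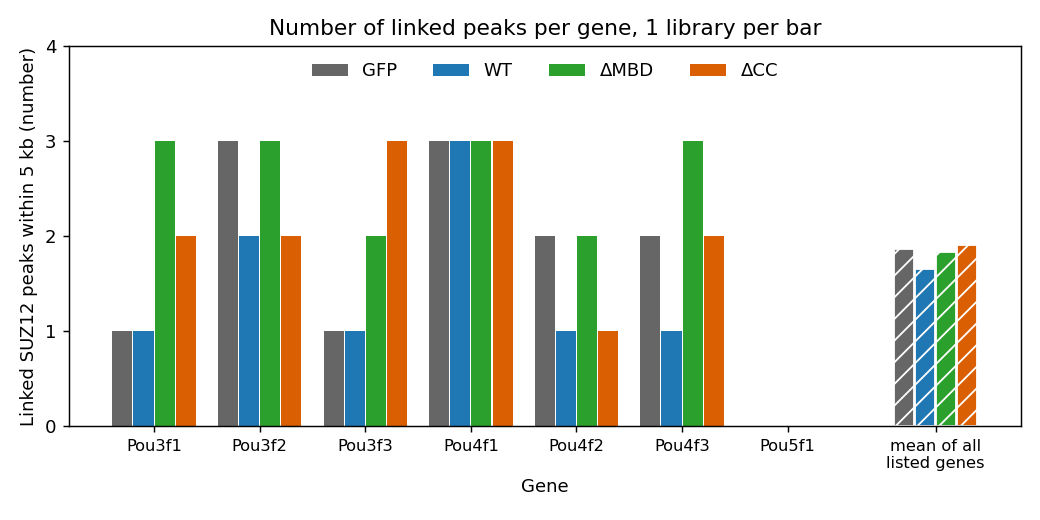
Number of linked SUZ12 peaks within 5 kb of the start site (y axis) at each member (x axis) in the 4 libraries; hatched bars give the mean over all listed genes of that library. Pou4f1 had 3 peaks in every library, Pou5f1 had none, and no member had more peaks in WT than in any other library.

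Pou3f1, a class III factor of Schwann cells, had a downstream peak in every library. Its centre lay at +856 bp in WT, +953 bp in GFP, +1102 bp in ΔCC and +1087 bp in ΔMBD. These 4 centres lay within 246 bp of each other. ΔMBD alone added upstream peaks, at -2930 bp and -2064 bp, and ΔCC alone added a distal peak at +3720 bp. None of these additions had a centre of another library within 1 kb.

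Pou3f2, a class III factor of cortical and hypothalamic neurons, was the only member with its common peak upstream. That centre lay at -1281 bp in WT, -986 bp in GFP, -960 bp in ΔCC and -985 bp in ΔMBD, a range of 321 bp. Its downstream peaks fell into 2 places. GFP and ΔCC had centres 35 bp apart, at +2346 bp and +2311 bp, where WT and ΔMBD had none within 1 kb. WT and ΔMBD had centres 96 bp apart, at +4566 bp and +4470 bp, where GFP and ΔCC had none within 1 kb. GFP also had a peak at +314 bp without a counterpart. ΔMBD had a further peak at +3636 bp, 930 bp from the WT centre.

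Pou3f3, a class III factor of the forebrain and kidney, had the tightest common peak of the members. The centres lay at +443 bp in WT, +597 bp in GFP, +583 bp in ΔCC and +465 bp in ΔMBD, a range of 154 bp. GFP and WT had no other linked peak. ΔMBD added +4639 bp, and ΔCC added -4806 bp and +3203 bp. The ΔCC peak at -4806 bp was the member peak closest to the 5 kb limit, and no member peak was listed beyond it.

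Pou4f1, a class IV factor of sensory ganglia, had 3 peaks in every library, but their places differed. They lay at +602, +1882 and +3054 bp in GFP, and at -1571, -1068 and +1235 bp in WT. They lay at -4167, -3183 and +1890 bp in ΔMBD, and at -1376, +657 and +3437 bp in ΔCC. The GFP centre at +602 bp and the ΔCC centre at +657 bp were 55 bp apart, and the GFP centre at +1882 bp and the ΔMBD centre at +1890 bp were 8 bp apart. WT and ΔCC both had a peak between -1571 and -1068 bp, where GFP and ΔMBD had none. With 12 peaks over the 4 libraries, Pou4f1 had the most of any member, a total reached by 11% of the 900 genes listed in all 4.

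Pou4f2, a class IV factor needed by retinal ganglion cells, had its peak at +1509 bp in WT and at +287 bp in ΔCC, with 1 peak in each. GFP had -915 bp and +1230 bp, and ΔMBD had +1552 bp and +4365 bp. The WT and ΔMBD centres were 43 bp apart. The ΔCC centre was within 1 kb of a GFP centre, 943 bp away, and of no WT or ΔMBD centre.

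Pou4f3, a class IV factor of the hair cells of the inner ear, had a downstream peak in every library, at +611 bp in WT, +972 bp in GFP, +1253 bp in ΔCC and +691 bp in ΔMBD. The WT and ΔMBD centres were 80 bp apart. GFP and ΔCC each added a distal peak, at +3689 bp and +4632 bp, which lay 943 bp apart. ΔMBD added -1788 bp and +2491 bp, without a counterpart in another library.

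**Figure D3:**
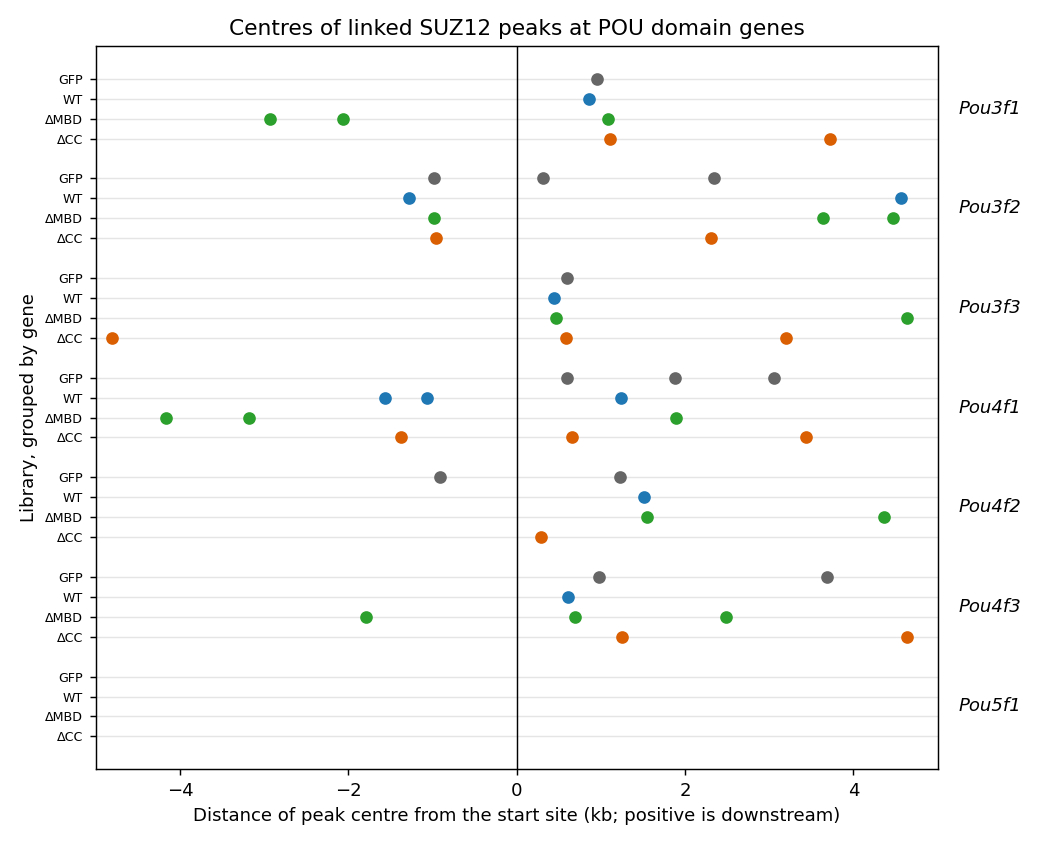
Centres of linked SUZ12 peaks (points) by distance from the start site (x axis, kb) at each member, with 1 row per library. Pou3f1 and Pou3f3 show a column of 4 centres just downstream of the start site, Pou3f2 shows one just upstream, the Pou4f1 rows differ, and the Pou5f1 rows are empty.

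The class III members had the tighter common peaks. The smallest range that held 1 centre of each library was 154 bp at Pou3f3, 246 bp at Pou3f1 and 321 bp at Pou3f2. It was 642 bp at Pou4f3, 1233 bp at Pou4f1 and 1265 bp at Pou4f2. Over the 900 genes listed in all 4 libraries the median was 672 bp. A range of 500 bp or less was found at 3 of the 6 members and at 33.0% of these genes, so the members as a set were close to genes at large. A range no wider than that of Pou3f3 was found at 3.22% of the genes, no wider than that of Pou4f1 at 85.1%, and no wider than that of Pou4f2 at 86.0%. The range and its limit were chosen after the positions had been seen, and the difference between the classes was not tested. Pou3f4, the class III gene outside the 7, had 772 bp, wider than Pou4f3.

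**Figure D4:**
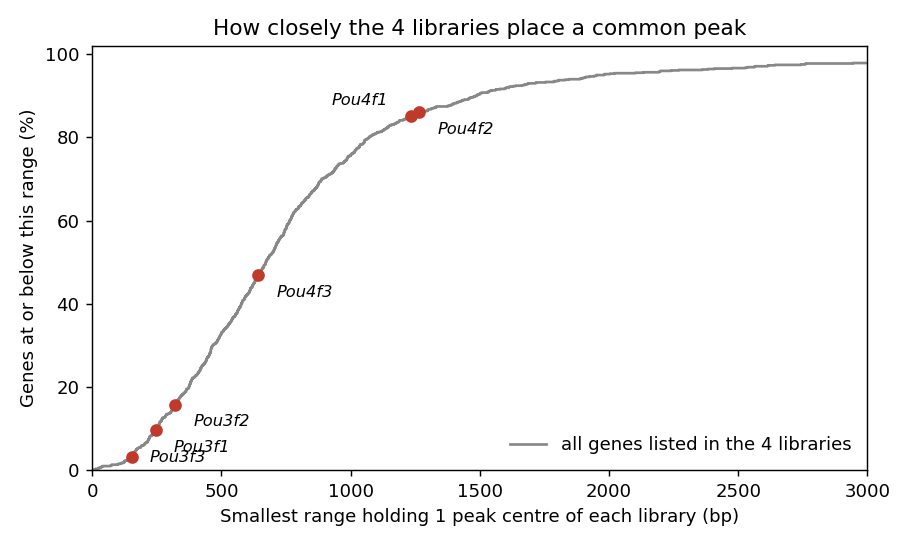
Smallest range in bp that holds 1 peak centre of each library (x axis) against the cumulative share of the 900 genes listed in all 4 libraries (y axis, %); red points are members, and 19 genes beyond 3000 bp are not drawn. The 3 class III members lie at the lower left, and Pou4f1 and Pou4f2 lie at the upper right.

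No member peak was centred within 250 bp of its start site, and the closest, at Pou4f2 in ΔCC, lay at +287 bp. Of all links, 13.2% lay within 250 bp in WT, 9.58% in GFP, 10.3% in ΔCC and 10.6% in ΔMBD. Of the 50 member peaks 36 were downstream of the start site and 14 upstream. The downstream part was 10 of 12 in GFP (83.3%), 6 of 9 in WT (66.7%), 10 of 16 in ΔMBD (62.5%) and 10 of 13 in ΔCC (76.9%). Over all listed genes it was 67.0%, 68.7%, 66.8% and 65.7% in the same order.

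All 6 listed members had a centre within 1 kb of the start site in GFP, against 67.9% of all genes that GFP listed. In WT this held for 3 of 6, against 73.0%, in ΔMBD for 3 of 6, against 72.4%, and in ΔCC for 4 of 6, against 72.0%. Several centres lay close to this limit: Pou3f2 at -986 bp in GFP and -985 bp in ΔMBD, and Pou4f3 at +972 bp in GFP, fell just inside it. Pou3f1 at +1087 bp in ΔMBD and +1102 bp in ΔCC, and Pou4f1 at -1068 bp in WT, fell just outside.

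The comparison of GFP with WT addresses what changes when MBD3 is put back. Pou3f2, Pou4f2 and Pou4f3 had more linked peaks in GFP than in WT, no member had fewer, and 3 had equal numbers. Among the 979 genes listed in both, 31.7% had more in GFP and 28.9% had fewer. Of the 9 WT member peaks 6 had a GFP centre within 1 kb (66.7%, interval 29.9 to 92.5), against 43.3% of all WT links, a link being 1 peak at 1 gene. Of the 12 GFP member peaks 7 had a WT centre (58.3%, 27.7 to 84.8), against 65.3% of all GFP links. Here and in the comparisons below, all links include those at genes that the second library did not list, which cannot match. The 6 listed members were in every library. The shares over all links are thus lower than at shared genes alone, and are not like for like.

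The ΔMBD library asks what happens without the MBD domain. ΔMBD had more peaks than WT at 5 of the 6 members, namely Pou3f1, Pou3f2, Pou3f3, Pou4f2 and Pou4f3, and fewer at none. Among the 1497 genes listed in both, 35.2% had more in ΔMBD and 21.5% had fewer. Of the WT member peaks 7 of 9 had a ΔMBD centre within 1 kb (77.8%, 40.0 to 97.2), against 77% of all WT links. In the other direction 8 of the 16 ΔMBD member peaks had a WT centre (50.0%, 24.7 to 75.3), against 71.8% of all ΔMBD links. Against GFP, ΔMBD had more peaks at Pou3f1, Pou3f3 and Pou4f3 and fewer at none, with 36.7% and 26.7% of the 988 genes listed in both. The matched shares were 6 of 16 ΔMBD peaks (37.5%, against 41.1%) and 6 of 12 GFP peaks (50.0%, against 67.1%).

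The comparison of ΔCC with WT addresses the loss of the coiled coil. ΔCC had more peaks than WT at Pou3f1, Pou3f3 and Pou4f3 and fewer at none, against 34.1% and 27.1% of the 1097 genes listed in both. Of the WT member peaks 7 of 9 had a ΔCC centre within 1 kb (77.8%, 40.0 to 97.2), against 52.1% of all WT links. Of the 13 ΔCC member peaks 6 had a WT centre (46.2%, 19.2 to 74.9), against 65.7%. Against GFP, ΔCC had more peaks at Pou3f1 and Pou3f3 and fewer at Pou3f2 and Pou4f2, where 34.8% and 26.0% of the 968 shared genes had more and fewer. Of the 12 GFP peaks 9 had a ΔCC centre (75.0%, 42.8 to 94.5), against 73.3%, and of the 13 ΔCC peaks 9 had a GFP centre (69.2%, 38.6 to 90.9), against 63.1%.

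The comparison of ΔMBD with ΔCC sets the mutants side by side. ΔMBD had more peaks than ΔCC at Pou3f1, Pou3f2, Pou4f2 and Pou4f3 and fewer at Pou3f3, against 34.2% and 27.8% of the 1112 genes listed in both. Of the 16 ΔMBD member peaks 4 had a ΔCC centre within 1 kb (25%, 7.27 to 52.4), against 50.1% of all ΔMBD links. Of the 13 ΔCC member peaks 4 had a ΔMBD centre (30.8%, 9.09 to 61.4), against 67.7%. These 4 places were the common peaks of Pou3f1, Pou3f2, Pou3f3 and Pou4f3. At 2000 bp the shares rose to 62.5% and 76.9%, against 63.2% and 82.5% of all links, so the gap to all links was smaller at 2 kb than at 1 kb. Lower shares at 2000 bp were found in other pairs. They were 50% of ΔMBD peaks in GFP, against 53.7% of all links, and 53.8% of ΔCC peaks in WT, against 80%. For ΔCC in WT the gap to all links was larger at 2 kb than at 1 kb, where the shares were 46.2% and 65.7%. Peaks of the same gene share their source, and the intervals treat them as separate.

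**Figure D5:**
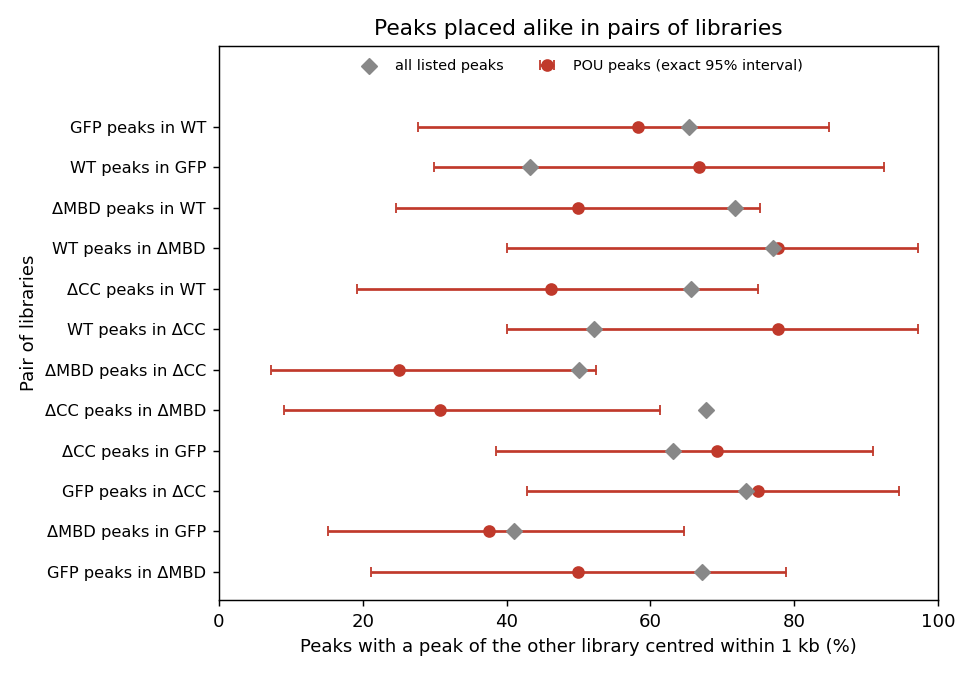
Share of peaks that had, at the same gene and within 1 kb, the centre of a peak from a second library (x axis, %), for the member peaks (red, with exact 95% intervals for counting error) and for all listed peaks (grey), in 12 directed pairs (y axis). In ΔCC peaks sought in ΔMBD the value over all peaks, 67.7%, lies above the upper bound of the members, 61.4%. In the other 11 it lies within the interval. The values over all peaks count peaks at genes that the second library did not list, which cannot match. They are thus lower than at shared genes alone, and the comparison is not like for like.

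ΔMBD held the most member peaks without a counterpart within 1 kb. Of its 16 member peaks 8 had no centre of any other library within 1 kb, compared with 2 of 12 in GFP, none of 9 in WT and 3 of 13 in ΔCC. At the 900 genes listed in all 4 libraries such peaks made up 12.1% in ΔMBD, 9.09% in GFP, 8.51% in WT and 9.55% in ΔCC. The 8 were spread over Pou3f1, Pou3f3, Pou4f1, Pou4f2 and Pou4f3. A partner beyond 5 kb would not be listed, so peaks over 2 kb from the start site were also compared among themselves. Among these, 7 of 9 ΔMBD member peaks had no counterpart, against 21.1% of 644 at the 900 genes. In ΔCC this was 3 of 6, against 18.2% of 599. In GFP it was none of 3, against 20.0% of 489, and in WT none of 1, against 18.4% of 539. The genes were not matched for number of peaks. The split at 2 kb was made after the positions had been seen.

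Peak numbers, which the caller assigns, ran without a gap at each listed member in each library, in 24 of 24 runs. Only the 17 runs with at least 2 peaks could show a gap. No called peak between 2 peaks of a member thus went unlinked, if numbers follow position. In all 17 runs with at least 2 peaks the numbers followed the distance. A run of 2 peaks can only rise or fall, so this order was fixed in advance for it. Runs with 3 peaks, the most at any member, could have shown a mixed order, and none did. The numbers rose with distance at Pou3f1, Pou3f3 and Pou4f3 and fell at Pou3f2, Pou4f1 and Pou4f2, as plus-strand and minus-strand genes would give. RefSeq places Pou3f3 on the plus strand and Pou3f2, Pou4f1 and Pou4f2 on the minus strand. Around Pou3f3 several called peaks were linked to no gene. In GFP 8 numbers lay unlinked between it and Slc9a2 on one side, and 4 between it and Tmeff2 on the other. On the side of Slc9a2 there were 5 in WT, 4 in ΔMBD and 5 in ΔCC. Around Pou4f2 no number in GFP or ΔCC, and at most 1 on a side in WT and ΔMBD, lay unlinked before the next listed gene.

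Of the 15 mouse POU family genes, 8 were listed in at least 1 library. Beside the 6 members, Pou3f4, the class III gene on the X chromosome, was listed in every library, with 1 peak in WT, 2 in GFP, 2 in ΔCC and 1 in ΔMBD. Pou6f1 was listed in some libraries and not in others, with 1 peak in WT at +559 bp, 2 in ΔMBD at -292 bp and +576 bp, and none in GFP or ΔCC. Pou1f1, the pituitary factor, and Pou2f1, Pou2f2, Pou2f3 and Pou5f2 were listed in no library. All class III and class IV genes were thus listed in all 4 libraries, and no gene of class I, II or V was listed in any.

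Of 30 genes that act with POU factors or beside them, 20 were listed in all 4 libraries, 9 in none, and 1, Sox10 of the neural crest, in every library but GFP. Of all protein-coding symbols, 3.96% were listed in all 4. Per library, 20 were listed in GFP and 21 in each of the others, against 4.61% to 7.37% of symbols. This list too was chosen with earlier results of these data known, so its shares are description only. The genes named next were picked for their known roles after their values had been seen. Isl1, a LIM homeobox factor that works with class IV factors in sensory neurons, had 6 peaks in WT, 3 in GFP, 6 in ΔCC and 5 in ΔMBD. Atoh1, which acts upstream of Pou4f3 in hair cells, had 1, 5, 2 and 1 in the same order. Sox2, Nanog, Klf4, Sall4 and Utf1, of the pluripotency network around Pou5f1, were listed in none, whereas Esrrb of the same network had 3, 1, 2 and 3 peaks. Sox1, Atoh7, Klf7 and Eya1 were the other genes listed in none.

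The genes outside the family with peak numbers most like those of a member were found over the 4 libraries. Pou3f1 shared its numbers exactly with 13 genes, of which Gsc, the homeobox gene goosecoid, had the closest peaks at the most similar distance, 158 bp apart on average, followed by Foxe3 and Ihh. Pou3f2 shared its numbers with 4 genes, led by Slc9a2, Adrb1 and Drd4. Pou3f3 shared its numbers with 5, led by Rbfox3, Mfhas1 and Efcc1. Pou4f2 shared its numbers with 22, led by Prmt8, Ppm1l and Pgr, and Pou4f3 with 9, led by Pax8, Tmem30b and Cbln2. No gene had 3 peaks in each library as Pou4f1 had. Hapln4, Wnt3 and Dlk1 came nearest, each with a summed difference of 1 peak.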

How the data were processed

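SUZ12 ChIP-seq peaks of 4 libraries were read from the deposited tables. Per the submitters' processing notes, bcl2fastq 2.18.0.12, MACS2 and the build mm9 were used. Aligner and MACS2 settings: not given in the sources used here. Per the file headers, peaks were linked to genes with GREAT 3.0.0, at most to the closest gene in each direction, up to 5000 bp, with curated domains included. The deposited tables give peak names and signed distances in bp, with no other unit, so depth is unknown. Lines of a symbol were joined. Of 1935 listed symbols, 1826 matched a RefSeq symbol and 59 matched 1 synonym (GRCm38.p6), and 50 matched none. A peak was matched when a centre of the other library lay within 1000 bp at the same gene. Intervals are exact (Clopper-Pearson, 95%). The matching code was checked on simulated data with 1 peak per gene and library, which is simpler than the real data. Promoter counts used, for each gene, the most upstream start in the RefSeq table. The members and lists were chosen with earlier results of these data known. The named genes are the members, their family, companion genes with mixed listing, and the 3 genes most alike per member. Further companion genes were named for their known roles after their values were seen, and some genes are not reported here. Alternatives were windows of 1000 and 2000 bp, at least 2 peaks, peaks of a single gene, and matching at 500 and 2000 bp. The tools were matplotlib 3.10.9, SciPy 1.17.1, NumPy 2.4.6 and Python 3.11.15.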

Additional observations from a re-analysis of the deposited data

How the results depend on the processing

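Of 60 alternative values, 43 stayed within 1.5 times the reported count or within the interval of the reported share, and 17 did not. With a window of 1000 bp, the members listed were 3 in WT and 3 in ΔMBD, and the member peaks 3 in WT, 7 in GFP, 4 in ΔCC and 3 in ΔMBD. With 2000 bp, the member peaks were 7 in ΔCC and 7 in ΔMBD, fewer than the 9 in GFP. With at least 2 peaks, WT listed 2 members. Within 1000 bp of the start site, a GFP centre nearby was found for 100% of WT and 100% of ΔMBD peaks, and a ΔCC centre for 33.3% of WT and 66.7% of ΔMBD peaks. Matching within 2000 bp gave 62.5% of ΔMBD peaks in ΔCC, 76.9% of ΔCC peaks in ΔMBD, 100% of GFP peaks in ΔCC and 91.7% of GFP peaks in ΔMBD. A smaller window holds fewer peaks and a wider match takes in more, by construction. Read depth, peak height and width are unknown, and with 1 library per group variation between cultures cannot be told apart from the form of MBD3. No paired analysis was possible because each group had 1 library and no result came from a test.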
